A study of Mus musculus with 8 samples.

Results

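Cytosolic ribosomal protein genes encode the proteins of the ribosome that translates messenger RNA outside mitochondria. They were followed here in cultured mouse hippocampal neural progenitors by single-cell RNA sequencing. The genes were chosen by name alone: protein-coding genes whose symbol begins with Rpl, Rps or Rplp and a number, or is Rpsa, leaving out the 5 Rps6k kinase names. The rule took 44 of the 9140 genes measured, of which 8752 are protein coding. It found 19 of 31 listed proteins of the small subunit, 20 of 43 of the large subunit apart from the stalk, and Rplp0 and Rplp2 of the 3 stalk proteins, 41 structural proteins in all. The other 3 names are outside these lists. Rps27l is a paralog of Rps27, and 2 names go against the label: Rpl7l1 is a homolog of Rpl7 linked to ribosome assembly, and Rps19bp1 binds the protein Rps19 and is not a ribosomal protein. Rpsa, Rps3, Rps19, Rplp1 and the other listed genes were not analysed here.

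Progenitors came from the dentate gyrus of embryos at embryonic day 18, from C57BL/6J dams mated to Kmt2d+/βgeo sires. The embryos carried either the Mll2Gt(RRt024)Byg gene-trap allele of Kmt2d, a histone methyltransferase gene and a model of Kabuki syndrome, or the wild-type gene (label C57BL/6J). Cells were kept undifferentiated with EGF and FGF2 (day 0) or collected 2, 4 and 8 days after these factors were removed. The embryonic age is that of the labels, and the methods of the study give a day earlier. The methods also speak of replicate cultures, and no source used here says which cultures a library holds. There was 1 library per genotype and day, 8 in all, so genotype, culture and library cannot be told apart, no test between groups was run, and the intervals given cover counting error only.

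The 8 libraries held 30408 cells, 2534 to 4900 per library, and 103 of 30305 cell barcodes occurred in more than 1 library. A UMI marks a captured RNA molecule. Median UMIs per cell on the measured genes ranged from 3972 in the Kmt2d+/βgeo-labelled day 8 library to 11230 in the Kmt2d+/βgeo-labelled day 0 library. Kmt2d itself had a mean normalised count of 0.193 and 0.157 on day 0, 0.171 and 0.197 on day 2, 0.295 and 0.237 on day 4, then 0.290 and 0.241 on day 8, with the Kmt2d+/βgeo-labelled library first. It was thus not lower in that library on days 0, 4 and 8, and no source used here places these 3′ tags relative to the trap. Directions between genotypes below are directions between libraries as labelled. The day 4 libraries were nearly alike: 28 of 7459 genes differed between them by a log2 ratio of at least 0.5, 26 of them lower in the Kmt2d+/βgeo-labelled library. Whether they hold separate cultures or the genotypes as labelled cannot be told apart from these data. Each day 4 genotype ratio, and each change within a genotype to or from day 4, is to be read with this limit. Of marker lists, 4 of 9 progenitor, 3 of 8 neuron, 5 of 8 astrocyte and 1 of 7 oligodendrocyte-lineage genes were measured, and none of the microglial or vascular ones. The astrocyte genes, Apoe foremost, summed to 23.7 and 17.1 normalised counts on day 0 and to 226 and 177 on day 2. They summed to 264 and 244 on day 4 and to 107 and 249 on day 8. At day 2, 4 of the 5 genes were lower by at least 0.5 in the Kmt2d+/βgeo-labelled library (all genes 5.28%) and 0 higher (5.47%). Its sum was the larger all the same, so the sum does not stand for the list. The neuron genes summed to between 3.07 and 4.46 in every library, of which Map2 made up most. Rbfox3, a neuronal nuclear protein gene, was far lower and did vary, at 0.00536 and 0.0174 normalised counts on day 0, 0.170 and 0.176 on day 4 and 0.113 and 0.0472 on day 8.

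Most ribosomal proteins are assembled in equal numbers into the particle, and their genes are among the most highly transcribed in growing cells. Their messenger RNAs typically begin with a terminal oligopyrimidine tract (TOP), a C followed by a run of C and T, through which the mTOR pathway and the RNA-binding protein Larp1 tie their translation and stability to growth signals. In neural lineages, stem and progenitor cells that grow and divide are known for high ribosome production.

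Start sites were read from RefSeq promoters on GRCm38.p6, where 33 of the 44 genes were found. Of these, 8 (24.2%, exact 95% interval 11.1 to 42.3) had a C at the annotated start followed by at least 4 pyrimidines, against 3.01% of 27025 genes in the table. All 8 were structural proteins. With starts allowed within 5 bases of the annotated one, the shares were 54.5% and 21.2%. The 7-letter element CCGGAAG, the core recognised by ETS factors, lay in 18 of the 33 windows of 300 bases (54.5%), against 9.93% of all genes, counted on either strand and free to overlap the tract. These matches describe letters and are not evidence of binding. The sequences below run from 35 bases before the annotated start to 15 from it, in the sense direction, with the pyrimidine tract at the start in capitals. They show some of the 8 TOP starts, in genes whose levels moved very differently below, and the 3 related names. The start base alone of these 3 is in capitals because they lack a tract there. A gene with several annotated starts was counted if any of them matched. Rps21 and Rps27l have 2 each, and for Rps21 a start with a tract is shown. With starts allowed within 5 bases, Rps27l does have a tract, which begins just after the annotated start, and Rpl7l1 and Rps19bp1 do not.
Rps21 (chr2:180257344-180257393, plus strand): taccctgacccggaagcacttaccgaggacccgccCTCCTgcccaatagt
Rps27 (chr3:90213634-90213683, minus strand): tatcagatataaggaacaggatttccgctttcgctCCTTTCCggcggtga
Rpl38 (chr11:114668545-114668594, plus strand): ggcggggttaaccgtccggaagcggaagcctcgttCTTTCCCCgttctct
Rps6 (chr4:86857353-86857402, minus strand): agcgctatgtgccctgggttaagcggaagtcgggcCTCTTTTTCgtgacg
Rplp2 (chr7:141447616-141447665, plus strand): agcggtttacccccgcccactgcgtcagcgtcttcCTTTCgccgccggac
Rpl15 (chr14:18270972-18271021, minus strand): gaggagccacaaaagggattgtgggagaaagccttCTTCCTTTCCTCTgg
Rps27l (chr9:66946051-66946100, plus strand): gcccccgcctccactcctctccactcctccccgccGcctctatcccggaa
Rps19bp1 (chr15:80264292-80264341, minus strand): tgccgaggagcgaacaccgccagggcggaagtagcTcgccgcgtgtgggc
Rpl7l1 (chr17:46782642-46782691, minus strand): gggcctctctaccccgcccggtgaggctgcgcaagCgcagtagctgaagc

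Together the 44 genes took a large part of the UMIs on measured genes, and this part was smaller after growth factor removal. Measured genes held between 43.8% and 49.6% of a cell's total UMIs, so shares of total UMIs are lower, at 9.04% and 8.61% on day 0 and 5.13% and 3.52% on day 8, with the Kmt2d+/βgeo-labelled library first. At day 0 they held 18.8% of a cell's UMIs on measured genes in the Kmt2d+/βgeo-labelled library (SD over 4331 cells 2.91) and 18.7% in the wild-type-labelled library (SD over 4857 cells 2.79). The day 2 means were 13.1% and 13.0%, followed by 8.67% and 9.30% on day 4. The day 8 means were 10.3% (SD 2.37 over 2965 cells) and 7.20% (SD 1.64 over 3212 cells). From day 0 to day 8 the share thus fell to 0.551 and 0.384 of its start. It was lower on each later day in the wild-type-labelled library, whereas in the Kmt2d+/βgeo-labelled library it was lowest at day 4. At day 8 the share was 1.43 times as high in the Kmt2d+/βgeo-labelled library, while at days 0 and 2 the genotypes differed by 0.0217 and 0.125 percentage points. The structural proteins alone gave 18.6% and 18.6% at day 0 and 10.2% and 7.09% at day 8. These are shares, so a fall in ribosomal protein RNA and a rise in other RNA cannot be told apart.

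**Figure D1:**
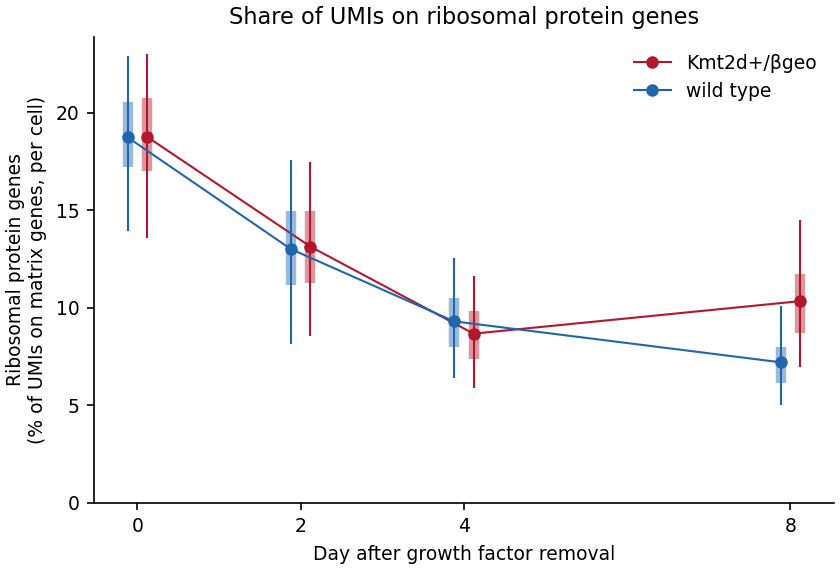
Percent of each cell's UMIs on measured genes that fell on the 44 ribosomal protein genes (y axis, from 0) by day after growth factor removal (x axis). Points are library means, thick bars the quartiles over cells and thin lines the 5th to 95th percentiles, which show spread between cells and not replicates; the means are close at days 0 and 2 and apart at day 8, at 10.3% against 7.20%, where the quartile bars do not overlap and the thin lines do.

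The genotype gap at day 8 was also present at matched depth and in cells split by a marker UMI. In cells with 4000 to 8000 UMIs the day 8 means were 10.4% and 7.24%. The Kmt2d+/βgeo-labelled library was the shallower of the pair, with a median of 3972 UMIs on measured genes against 6989, and its shallowest, middle and deepest cells, in 3 equal groups, had shares of 10.2%, 10.3% and 10.4%. In cells with a UMI of Gja1, an astrocyte gap-junction gene, the means were 10.1% and 7.05%, and in cells without it 10.9% and 7.63%. With cells thinned to 3000 UMIs these were 10.0% and 6.97%, and 10.8% and 7.55%. In cells with a UMI of Olig2, a transcription factor of the oligodendrocyte lineage, the means were 10.7% and 7.81%, and in cells without it 10.2% and 7.02%. The astrocyte gene sum differed between the same libraries, at 107 and 249, as did Olig2, at 1.48 and 0.911 normalised counts. Free RNA can give a UMI in cells that do not express a gene, and its amount was not measured here, so these splits do not separate cell types. The part of cell make-up in the gap was not tested.

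Within a library the share also differed between cells with and without some markers. At day 0, 58.6% and 55.1% of cells had a UMI of Top2a, a topoisomerase gene of dividing cells. Their share was 18.8% and 18.6%, against 18.7% and 18.9% in cells without one. Cells with Top2a were deeper, with medians of 12894 and 11183 UMIs against 9699.8 and 8223, and with cells thinned to 3000 UMIs before Top2a was scored the shares were 18.6% and 18.4% against 18.9% and 18.9%. The direction in the Kmt2d+/βgeo-labelled library thus turned on thinning. At day 8, 1.28% and 3.42% of cells had Top2a, at unequal depth, and these had higher shares, 11.3% against 10.3% and 8.16% against 7.17%, or 11.2% against 10.4% and 8.87% against 7.19% when thinned. At day 4, cells with Hopx, a gene of quiescent stem cells and astrocytes, had 8.20% and 8.77%, against 9.21% and 9.83% without it. Cells with Hopx were also the deeper, with medians of 9441 and 8605 UMIs against 8348 and 7434, and the day 4 share fell from 9.33% and 10.00% in the shallowest cells to 7.97% and 8.57% in the deepest. With cells thinned to 3000 UMIs before Hopx was scored, the shares were 8.15% and 8.79% against 8.90% and 9.54%. Cells with Rbfox3 had 9.32% and 10.0% at that day, against 8.57% and 9.19%, and 9.63% and 10.1% against 8.62% and 9.27% when thinned. At day 2, cells with Olig2 had 13.4% and 13.4%, against 12.4% and 11.5% without it. Apoe was seen in nearly every cell after day 0 and gave no useful split, and for Map2 the shares differed by little.

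Individual genes spanned a wide range of levels, although most of their proteins enter the ribosome in equal numbers. Values are mean normalised counts of 3′ tags per cell, which count molecules and are not divided by transcript length. The highest means over the 8 libraries were those of Rpl41 at 74.8, Rps2 at 58.0, Rplp0 at 56.2, Rps24 at 49.96 and Rpl23 at 48.1. Rpl41 encodes the smallest of these proteins and Rplp0 the base of the stalk that recruits translation factors. Among the lowest were Rpl7l1 at 0.906, Rps19bp1 at 0.909, Rpl5 at 5.77 and Rps6 at 6.67. All 44 passed the minimum mean of 0.1 in every library. The order of the 44 was similar in both genotypes, with a Spearman correlation across genes of 0.97 at day 0, 0.92 at day 2, 0.93 at day 4 and 0.99 at day 8. For 6 genes, among them Rps2, Rpl35, Rps3a1, Rps7 and Rps15a, under 50% of nonzero values were whole UMIs, as can happen when reads are shared with near-identical copies such as pseudogenes, and their values are uncertain.

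Against day 0, most ribosomal protein genes were lower on every later day. None was higher by a log2 ratio of at least 0.5, a rise seen for 20.7%, 26.4% and 30.6% of all genes at days 2, 4 and 8 of the wild-type-labelled series and for 25.4%, 31.9% and 34.8% of the other. In the wild-type-labelled library, 26 of 44 were lower by at least 0.5 at day 2 (all genes compared, 18.3%), 36 at day 4 (17.7%) and 40 at day 8 (25.1%). The median log2 ratio of the 44 was -0.53, -1.02 and -1.48, against 0.01, 0.09 and 0.04 over all genes compared. In the Kmt2d+/βgeo-labelled library, 24 were lower at day 2 (all genes 19.0%), 43 at day 4 (16.6%) and 37 at day 8 (27.1%), with medians of -0.55, -1.10 and -1.11 against 0.05, 0.17 and 0.11. By day 8, 36 of the 44 were lower by at least 0.5 in both genotypes (all genes compared in both, 19.5%). The fall took in each part of the particle. At day 8, 17 and 18 of 19 small-subunit genes, 17 and 19 of 20 large-subunit genes and both stalk genes were lower, with the Kmt2d+/βgeo-labelled library first. The comparisons of a genotype share its day 0 library. From day 4 to day 8, 25 of the 44 had a ratio above 0 in the Kmt2d+/βgeo-labelled library (all genes 43.8%) and 2 in the wild-type-labelled library (43.8%), with medians of 0.06 and -0.44 against -0.09 and -0.06 over all genes. By at least 0.5, 6 of the 44 were higher (13.6%, all genes 17%) and 9 lower (20.5%, all genes 25.4%) in the first. In the second, 0 were higher (all genes 9.55%) and 18 lower (40.9%, all genes 9.96%).

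Rpl17, Rpl5, Rps6 and Rpl13a were among the 5 deepest falls in both genotypes. Rpl17, a protein of the large subunit near the peptide exit tunnel (chromosome 18, 74998558 to 75003381, GRCm38, ENSMUSG00000062328), had 29.6, 13.6, 6.05 and 3.13 normalised counts at days 0, 2, 4 and 8 in the wild-type-labelled library and 22.3, 15.4, 8.32 and 2.73 in the Kmt2d+/βgeo-labelled library. Its log2 ratio of day 8 over day 0 was -3.24 and -3.03, and that of pooled UMIs was -3.26 (95% interval -3.29 to -3.23) and -3.06 (-3.11 to -3.01). Each day lay below the one before it in both series. Of the nonzero values of Rpl17, 61.4% were whole UMIs, and the intervals cover counting error only. Rpl5, which joins 5S ribosomal RNA and can bind Mdm2 to stabilise p53 (chromosome 5, 107900502 to 107909005), went from 13.4 to 5.82, 2.98 and 1.84 and from 10.7 to 5.72, 4.17 and 1.52. Rpl11, its partner in the same complex, fell less, with log2 ratios at day 8 of -1.67 and -1.11. Rps6, the small-subunit protein phosphorylated by some of the kinases that the naming rule left out (chromosome 4, 86854660 to 86857412), went from 12.9 to 5.80, 3.36 and 2.29 and from 14.7 to 7.54, 4.41 and 2.34. Rpl17, Rpl5 and Rps6 thus ended at low levels in both genotypes. Rpl13a, known from translational control in inflammation, had day 8 ratios of -2.83 in the wild-type-labelled library and -2.65 in the Kmt2d+/βgeo-labelled library. Rps26, at -2.56, was also among the 5 in the wild-type-labelled library, where Rps6 had -2.49, and Rps15, at -2.28, in the other. Of nonzero values, 53.6% were whole UMIs for Rpl5, 59.5% for Rps6 and 60.5% for Rpl13a, against 75.5% over the ribosomal protein genes. For Rps26 and Rps15 these were 96.7% and 98.5%. Reads may be shared with near-identical copies, so the sizes of the falls of Rpl17, Rpl5, Rps6 and Rpl13a are uncertain.

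Other members had ratios nearer 0, though some of them passed 0.5 in 1 genotype. Rps19bp1 had day 8 over day 0 log2 ratios of -0.05 in the wild-type-labelled library and -0.02 in the other, Rps27l -0.34 and -0.15, and Rpl41 -0.58 and -0.07. In the wild-type-labelled library, Rps29 at -0.26 and Rpl38 at -0.48 were also among the 5 smallest falls. In the Kmt2d+/βgeo-labelled library, Rpl39 at -0.12 was among them and Rps2 stood at 0.18, above its day 0 level. Rps2, a small-subunit protein near the messenger RNA entry (chromosome 17, 24718116 to 24721929), had 77.6, 42.6, 40.9 and 45.3 normalised counts in the wild-type-labelled library and 77.4, 50.7, 41.5 and 87.9 in the other. The genotypes coincided at days 0 and 4 and were far apart at day 8. Rps2 is one of the 6 genes with few whole values, and its level is uncertain.

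**Figure D2:**
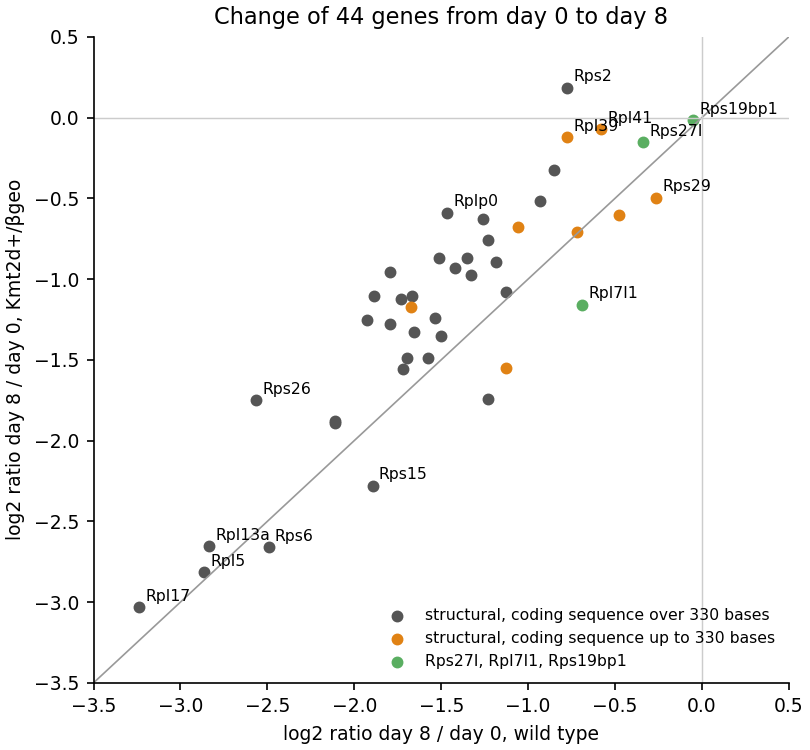
log2 ratio of mean normalised counts, day 8 over day 0, of each of the 44 genes in the wild-type-labelled library (x axis) and in the Kmt2d+/βgeo-labelled library (y axis), with the line of equal change. Of the 44 points, 43 lie below 0 in both genotypes and 37 lie above the line. Rpl17 lies at -3.24 and -3.03 and Rps2 at -0.78 and 0.18. The level of Rps2 and the size of the fall of Rpl17 are uncertain.

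Between genotypes at day 0, ribosomal protein genes were nearly level. The median log2 ratio, Kmt2d+/βgeo-labelled library over the wild-type-labelled library, was 0.01 (all genes -0.04). Of the 44, 1 was higher by at least 0.5 (all genes 3.48%) and 0 were lower (6.08%). That gene was Rps29 at 0.56, from 18.9 and 12.9 normalised counts. Rps27 at 0.43, Rps19bp1 at 0.34 and Rpl38 at 0.33 were also among the highest. The lowest were Rps7 at -0.47, Rpl17 at -0.41, Rps26 at -0.38, Rpl13a at -0.38 and Rpl5 at -0.33.

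At day 2 the 44 genes split. In the Kmt2d+/βgeo-labelled library, 9 were lower (all genes 5.28%) and 2 were higher (5.47%), with a median of 0.09. The lowest were Rps29 at -1.23, Rpl38 at -1.22, Rps27 at -1.05, Rpl39 at -1.02 and Rps21 at -0.99, and Rpl37, Rpl36, Rps26 and Rpl41 were the other 4. Rps29, a zinc-binding small-subunit protein (chromosome 12, 69157722 to 69159186), had 12.9, 13.3, 15.3 and 10.7 normalised counts at days 0, 2, 4 and 8 in the wild-type-labelled library and 18.9, 5.66, 8.88 and 13.4 in the other. The gap lay at days 2 and 4 and had the opposite sign at days 0 and 8. Rpl38, a large-subunit protein known for its part in the translation of Hox messenger RNAs (chromosome 11, 114668524 to 114672331), had 12.5, 11.9, 13.2 and 9.001 against 15.8, 5.08, 7.66 and 10.4. The ratio of pooled UMIs at day 2 was -1.22 (-1.24 to -1.20) for Rps29 and -1.21 (-1.24 to -1.19) for Rpl38. Among the highest ratios were those of Rpl15 at 0.73, Rps7 at 0.71, Rps6 at 0.38 and Rpl19 at 0.34. Rpl15, a large-subunit protein (chromosome 14, 18267823 to 18271391), had 38.4, 21.5, 13.3 and 13.2 in the wild-type-labelled library against 33.6, 35.6, 13.6 and 14.2. Of its nonzero values, 57.2% were whole UMIs. At day 2 it was seen in 92.7% of cells of the wild-type-labelled library, against 98.9% in the other, so its day 2 gap is uncertain. For Rps7, 43.7% of nonzero values were whole UMIs, so its day 2 gap is uncertain too.

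The genes lower at day 2 are those that encode the shortest proteins, a grouping made after the values were seen and given as a description. Of the 41 structural genes, 8 have a coding sequence of at most 330 bases in GENCODE M21: Rpl41, Rpl39, Rps29, Rpl38, Rps21, Rps27, Rpl37 and Rpl36, from 75 to 315 bases. All 8 were lower by at least 0.5 at day 2, with a median log2 ratio of -1.003, against 0.13 for the 33 longer ones. Among the longer ones, Rps26 at 345 bases was the 1 gene lower by 0.5, at -0.61, and Rplp2, also of 345 bases, stood at -0.38. Rps27l, with the same coding length as Rps27 at 252 bases, stood at -0.23 against -1.05. Across the 44 genes the Spearman correlation of ratio with coding length was 0.88 at day 2 and 0.80 at day 4, but -0.48 at day 0 and -0.16 at day 8. Genes of a ribosome are not independent, and these correlations are descriptions. The 8 short genes supplied 9.99% of the UMIs of the 44 at day 2 in the Kmt2d+/βgeo-labelled library and 18.1% in the wild-type-labelled library.

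The tie to coding length was not particular to ribosomal protein genes. At the cut of 330 bases the gap was larger among them, but this cut followed their values, and the sets were not matched by level. At day 2, 18.8% of 181 other genes with at most 330 coding bases were lower by at least 0.5, against 3.86% of 233 genes of 330 to 450 bases and 4.52% of 2677 genes of 900 to 1800 bases. Their median, however, was -0.04, against -0.99 for the 9 ribosomal protein genes of that length, of which 8 were lower. At day 4, of the 28 genes that differed between the libraries, 24 have an annotated coding sequence and 16 of these have at most 330 bases. The 16 include 6 ribosomal protein genes. Of other genes that short, 10 of 184 were lower at day 4 (5.43%), against 6 of 9 ribosomal protein genes (66.7%). Of 2690 other genes of 900 to 1800 bases, 0.0743% were lower. In the Kmt2d+/βgeo-labelled library, 6 of the 44 ribosomal protein genes were lower at day 4 (all genes 0.349%) and 1 was higher (0.0268%). The 6 were Rps29 at -0.78, Rpl38 at -0.78, Rps27 at -0.66, Rpl39 at -0.61, Rpl37 at -0.57 and Rps21 at -0.54, and the 1 was Rpl13a at 0.57. Other short genes in that set, named after their values were seen, include Ndufa3 at -0.73, Atp5k at -0.71 and Tomm7 at -0.54. What sets these libraries apart was not tested. The correlation with annotated transcript length was lower, at 0.46 at day 2 and 0.42 at day 4.

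**Figure D3:**
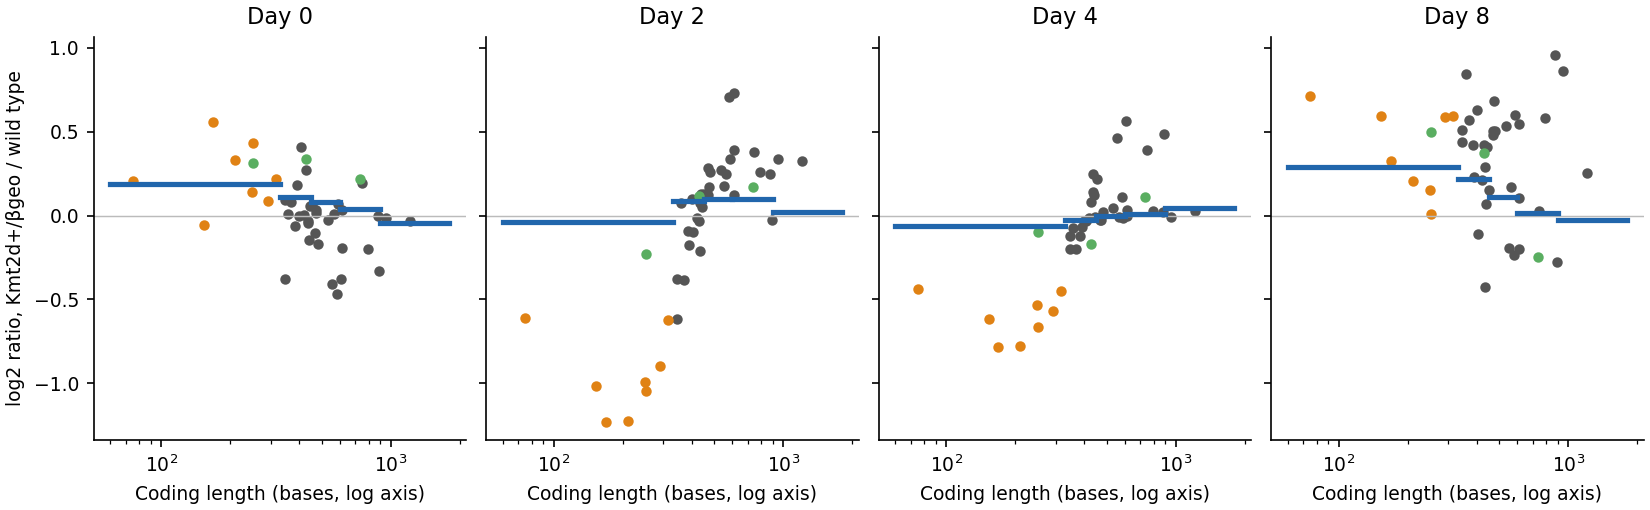
log2 ratio of the mean levels, Kmt2d+/βgeo-labelled library over wild-type-labelled library (y axis), against coding length in bases (x axis, log scale) for the 44 genes on each day. Orange points are the 8 structural genes of at most 330 bases, green points Rps27l, Rpl7l1 and Rps19bp1, grey points the rest, and blue bars the medians of all other genes in bins of coding length up to 1800 bases; the orange points have a median of -1.003 at day 2 and -0.59 at day 4, but 0.21 and 0.46 at days 0 and 8.

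**Figure D4:**
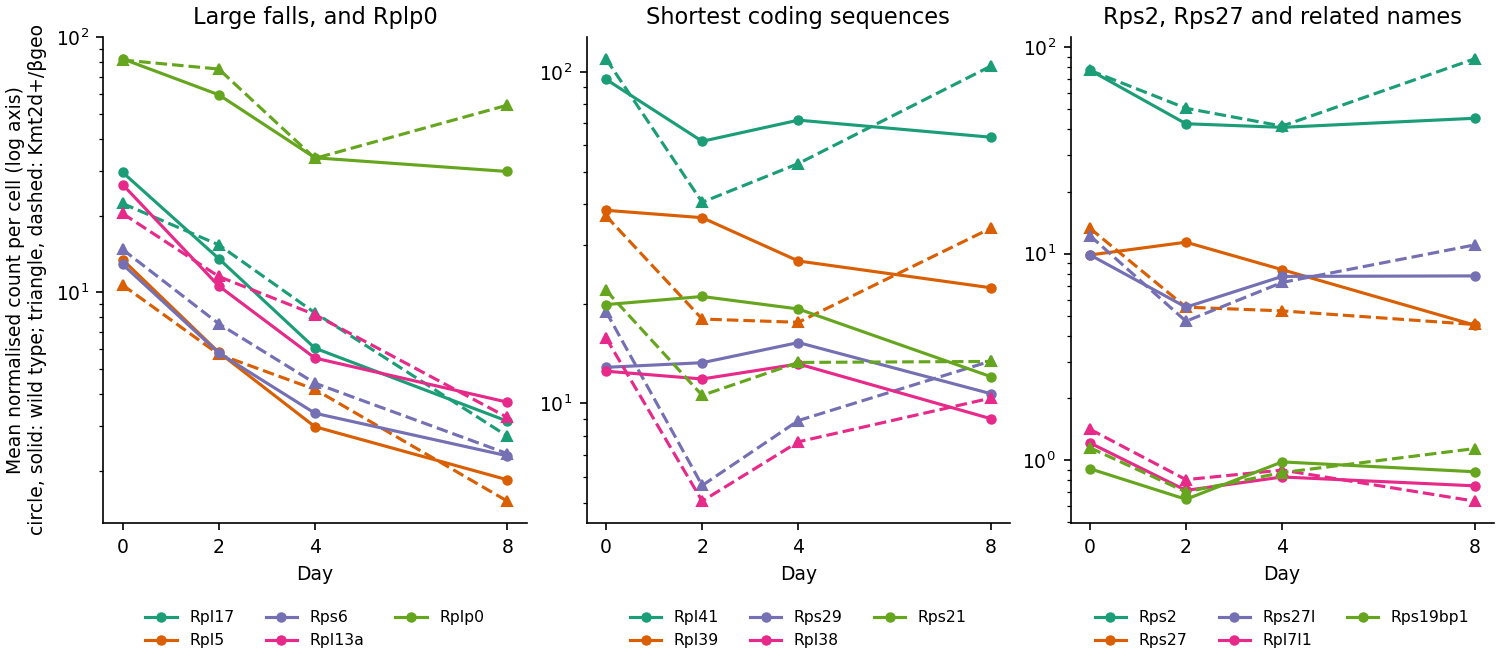
Mean normalised count per cell (log axis, a separate scale in each panel) of 15 genes by day, with circles and solid lines for the libraries labelled wild type and triangles and dashed lines for those labelled Kmt2d+/βgeo. Rpl17, Rpl5, Rps6 and Rpl13a are lower at day 8 than at day 0 in both series in the left panel, where the series of Rpl17, Rpl5 and Rpl13a cross, Rps29 dips to 5.66 at day 2 in the Kmt2d+/βgeo-labelled series, against 13.3 in the other, in the middle panel, and Rps2 separates at day 8, at 87.9 against 45.3, in the right panel. The level of Rps2 is uncertain.

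At day 8, 17 of the 44 genes had higher levels in the Kmt2d+/βgeo-labelled library (all genes 10.2%) and 0 were lower (13.1%). The median log2 ratio was 0.41 (all genes 0.01) and 37 of the 44 lay above 0. The 17 came from 7 of 19 small-subunit, 8 of 20 large-subunit and both stalk genes. Among the highest were Rps2 at 0.96, Rplp0 at 0.86, Rps20 at 0.84 and Rpl41 at 0.71. The level of Rps2 is uncertain, as few of its nonzero values were whole UMIs. Rplp0 (chromosome 5, 115559467 to 115563727) had 82.3, 59.6, 33.7 and 29.8 normalised counts in the wild-type-labelled library and 81.5, 75.1, 33.5 and 54.2 in the other, and its pooled ratio at day 8 was 0.87 (0.86 to 0.88). It was thus nearly level at days 0 and 4. Rplp2, its partner in the stalk, had 27.2, 18.0, 16.2 and 14.2 against 29.0, 13.8, 14.9 and 20.2. Rps15 at -0.43, Rpl5 at -0.28, Rpl7l1 at -0.25, Rps7 at -0.24 and Rpl13a at -0.20 were the lowest and did not pass 0.5. Short and longer structural genes had like medians at this day, 0.46 and 0.42. Among other genes, 24.9% of 189 with at most 330 coding bases were higher (median 0.29), 16.5% of 237 with 330 to 450 bases (median 0.22) and 8.48% of 2713 with 900 to 1800 bases (median -0.03), so genes as short as most ribosomal protein genes also lay above the figure for all genes. Of the ribosomal protein genes, 4 of 9 in the shortest of these bins and 4 of 15 in the next were higher, as were 5 of 10 with 450 to 600 bases, against 11.1% of 415 other genes of that length. On the scale of mean log2 values the count was 8 higher and 1 lower, with a median of 0.27.

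Within each library, most ribosomal protein genes rose and fell together from cell to cell. The median correlation of a gene's log2 value with the summed share of the other members was 0.60 in both day 0 libraries and lowest at day 8, at 0.38 in the Kmt2d+/βgeo-labelled library and 0.44 in the wild-type-labelled library. It moves with depth and level, so it is a description. Rpl23 (0.75), Rps3a1 (0.74), Rps20 (0.73), Rplp0 (0.72) and Rps24 (0.71) had the highest medians over the 8 libraries. Rpl7l1 and Rps19bp1 had 0.02 each, at low counts. Rps27l, at counts like those of Rps27, had 0.04 against 0.43 for Rps27. Among structural genes the lowest was Rps7 at 0.18, a gene with few whole UMIs and uncertain values.

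Of the 3 related names, Rpl7l1 and Rps19bp1 had lower mean levels than every structural gene, at 0.906 and 0.909. Rps27l, at 8.28, lay among the structural genes in level. Rps27l, reported as a p53-induced ribosomal protein (chromosome 9, 66946086 to 66949516), had 9.88, 5.51, 7.76 and 7.81 normalised counts in the wild-type-labelled library and 12.3, 4.71, 7.26 and 11.03 in the other. It was lowest at day 2 in both and higher again later. Rps27 went from 9.86 to 11.4, 8.37 and 4.51 and from 13.3 to 5.51, 5.29 and 4.54. The paralogs were thus close to each other at day 0, and at day 8 Rps27l was the higher in both genotypes. Rpl7l1 (chromosome 17, 46773907 to 46782672) ranged from 0.633 to 1.41 and Rps19bp1 (chromosome 15, 80260615 to 80264315) from 0.646 to 1.15.

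Other genes of the translation machinery fell as well from day 0 to day 8. Of the listed ribosome biogenesis genes, 69 of 84 were measured. By day 8, 61 of 69 were lower and 2 higher in the Kmt2d+/βgeo-labelled library, and 58 of 68 were lower and 2 higher in the wild-type-labelled library, with medians of -1.58 and -1.14. Over all genes compared, 27.1% were lower and 34.8% higher in the first and 25.1% and 30.6% in the second, with medians of 0.11 and 0.04. Nop58, a core protein of box C/D small nucleolar particles, had ratios of -3.01 and -2.50, Gnl3, or nucleostemin, -2.93 and -2.24, and Nolc1 -2.98 and -2.22. The nucleolar proteins Npm1 and Ncl had -2.60 and -2.14, and -2.37 and -1.40. Of 42 measured translation factors, 34 and 30 were lower and 0 and 1 higher, with medians of -1.15 and -0.90. Eef1a1, which delivers charged tRNA and whose messenger RNA has a TOP start, had -2.24 and -2.51, Eif3m -2.16 and -1.78, and the poly(A)-binding protein Pabpc1 -1.56 and -1.99. Tpt1, another TOP messenger RNA, had -1.26 and -1.28. Fau, a ribosomal protein gene outside the naming rule, had -0.86 and -1.32. Rack1 and Eef2 were not analysed here.

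Medians of the mitochondrial ribosome and of growth signalling lay nearer 0. Of its 48 measured genes, 19 were lower and 10 higher in the Kmt2d+/βgeo-labelled library, and 10 lower and 6 higher in the wild-type-labelled library, with medians of -0.33 and -0.23. Against the shares of all genes given above, 27.1% and 25.1% lower and 34.8% and 30.6% higher, the 19 lower of 48 stood above that background and the other counts below it. Mrps27 had -1.89 and -1.33, Mrpl38 -1.78 and -1.04, and Mrps6 1.16 and 1.37. Of 18 genes of growth signalling that could be compared, 3 and 5 were lower and 5 and 2 higher, with medians of 0.12 and 0.00066. Trp53, the gene of p53, had -1.15 and -1.32, Rps6ka5, a kinase of the left-out Rps6k names, had 1.51 and 1.31, and Pdcd4, an inhibitor of translation initiation, had 1.07 and 1.04.

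Between genotypes at day 8, biogenesis genes and translation factors stood on the other side of 0 from the ribosomal protein genes. Of 60 biogenesis genes compared, 15 were lower in the Kmt2d+/βgeo-labelled library and 2 higher, with a median of -0.29 (all genes 13.1% lower and 10.2% higher, median 0.01). Of 42 translation factors, 10 were lower and 1 higher, with a median of -0.19. The 44 ribosomal protein genes had 0 lower and 17 higher, and Fau, at 0.54, was on their side. The mitochondrial ribosome had 7 lower and 7 higher with a median of -0.03, and growth signalling had 0 in either direction by this count.

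**Figure D5:**
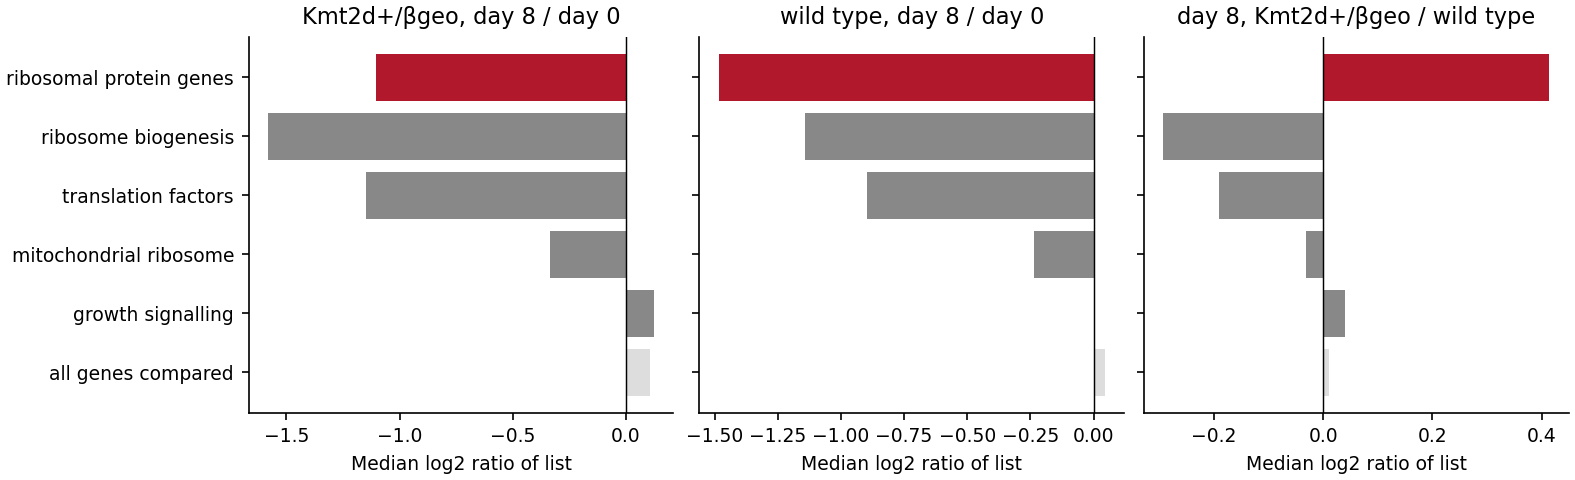
Median log2 ratio (x axis, from 0) of the ribosomal protein genes (red), 4 other lists (dark grey) and all genes compared (light grey), for day 8 over day 0 in each genotype and for the Kmt2d+/βgeo-labelled library over the wild-type-labelled library at day 8. Ribosomal protein genes have medians of -1.11 and -1.48 over time and 0.41 between genotypes, where biogenesis genes have -0.29 and translation factors -0.19.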

How the data were processed

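Per the labels and the methods of the study, reads were assigned to GRCm38 genes with Alevin (Salmon 1.3.0), and the authors kept spliced counts, removed low-quality cells and doublets, dropped mitochondrial and rare genes, scaled each cell by library size and deposited log2 values. The deposited cell table gives total UMIs per cell as estimated counts. Here the log2 transform was undone and the offset of 1 subtracted. These normalised counts sum to 8707.1 in every cell. Each cell's most frequent value was read as 1 UMI, and 86.8% of all nonzero values and 75.5% of those of the 44 genes were then within 0.01 of a whole UMI. Median UMIs per cell on measured genes at days 0, 2, 4 and 8 were 11230, 7566, 8908 and 3972 in the Kmt2d+/βgeo-labelled libraries. They were 9402, 7299, 7988 and 6989 in the wild-type-labelled ones.

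Genes with a mean of at least 0.1 in either library were compared by the log2 ratio of means and counted at an absolute value of at least 0.5. Pooled UMI ratios have exact conditional 95% intervals and shares exact binomial ones. With 1 library per group no test was run. Calculations used Python 3.11.15 with numpy 2.4.6, scipy 1.17.1 and pandas 2.3.3, and the ratio step was tested on simulated data.

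The members and gene lists were chosen with earlier results of these data known. Named genes were the 5 highest and 5 lowest members by mean and by ratio in 5 comparisons, paralogs, members with known roles, and up to 3 genes per other list. Apart from that limit, Fau, Rack1, Eef1a1, Eef2, Tpt1, Npm1 and Ncl were also set to be named. The genes named at day 4, the short genes and those with shared reads were named after their values were seen. Values of some genes that this rule takes are not reported here.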

Additional observations from a re-analysis of the deposited data

Results flagged for a closer look

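For 6 ribosomal protein genes, the log2 ratios over day 0 had opposite signs in the 2 genotypes, with at least 1 of them 0.5 or more in size. With 1 library per genotype and day, these differences were not tested, and in several of them 1 of the ratios lay near 0. By the same measure, day 2 had 4 of 44 members against 1.56% of all genes compared. Day 4 had 2 members against 1.72%, and day 8 had 1 against 4.98%. At day 2, Rps21 had a log2 ratio over day 0 of -1.05 in the Kmt2d+/βgeo-labelled library and 0.081 in the wild-type-labelled library. Rps27 had -1.27 and 0.21, and Rps29 had -1.74 and 0.046. Rpl15 went the other way at day 2, with 0.084 and -0.84, but its day 2 gap is uncertain. At day 4, where the labels have the limit given above, Rpl38 had -1.04 and 0.073, and Rps29 had -1.09 and 0.25. At day 8, Rps2 had 0.18 and -0.78, but its level is uncertain, with 11.7% of nonzero values being whole UMIs.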

How the results depend on the processing

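No paired analysis was possible because each comparison sets 1 library against 1, so that it holds no second pair, and a fit of genotype and day over all 8 libraries was not run. For the same reason no replicate could be left out. Limits to structural proteins and to cells of 4000 to 8000 UMIs were added after the data were seen. Shares of UMIs below are in the order day 0, 2, 4 and 8, with the Kmt2d+/βgeo-labelled library before wild type on each day. Pooled over a library they were 19.0, 18.8, 13.0, 12.8, 8.55, 9.15, 10.4 and 7.19%. Of total UMIs they were 9.04, 8.61, 6.08, 5.71, 3.78, 4.20, 5.13 and 3.52%. Without the 5 most abundant genes they were 14.0, 14.2, 9.85, 9.79, 6.41, 6.82, 6.69 and 5.01%. For structural proteins they were 18.6, 18.6, 13.1, 12.9, 8.57, 9.19, 10.2 and 7.09%. In cells with no Top2a UMI they were 18.7, 18.9, 13.1 and 13.0% at days 0 and 2 and 7.17% in the wild-type-labelled day 8 library. The fall from day 0 and the gap at day 8 were present in each of these.

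The median day ratio of the 44 genes was below 0 under every alternative run. In cells of 4000 to 8000 UMIs it was nearer 0. At days 2, 4 and 8 it was -0.40, -0.93 and -0.97 in the Kmt2d+/βgeo-labelled library and -0.46, -0.91 and -1.41 in the wild-type-labelled library. The 24 and 26 genes lower at day 2 became 20 and 18 in such cells. Of 100 recomputed medians, 3 changed sign, all in the genotype ratio at day 0 or 4, where the reported median was no larger than 0.0126. At a threshold of 0.25, the genes past it in either direction between genotypes were 12, 22, 12 and 29 at days 0, 2, 4 and 8 (all genes 36.7, 32.5, 3.35 and 52.4%), and at a threshold of 1 they were 0, 4, 0 and 0 (1.55, 2.84, 0 and 4.87%). Against day 0, at a threshold of 1 in either direction, they were 13, 31 and 24 at days 2, 4 and 8 (all genes 17.4, 21.4 and 32.9%) in the Kmt2d+/βgeo-labelled library. In the wild-type-labelled library they were 6, 23 and 33 (13.6, 18.5 and 27.3%). All of these members were lower. Of all genes, 506 of 7502, 507 of 7669 and 1078 of 7765 were lower by at least 1 in the first library. In the second they were 414 of 7451, 503 of 7626 and 846 of 7737. At day 0 between genotypes the reported count of 1 became 2 on the scale of mean log2 values, 2 scaled to total UMIs, 2 in cells with no Top2a UMI and 3 in cells of 4000 to 8000 UMIs. At day 8 the 17 became 9 in either direction on the scale of mean log2 values. At days 0 and 4 the split above and below 0 moves with the scaling: 25 against 19 became 34 against 10 scaled to total UMIs at day 0, and 17 against 27 became 11 against 33 at day 4. A TOP start was found in 54.5% within 5 bases of the annotated start. The causes were not tested. Depth limits the Kmt2d+/βgeo-labelled day 8 library most, where 757 cells had under 3000 UMIs and were left out on thinning.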
